A study of Saccharomyces cerevisiae with 12 samples.

Results

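RNA of a Saccharomyces cerevisiae hal4hal5 mutant was compared with RNA of its wild type in the W303 genetic background, both grown in YPD of pH 6.0. These data are 4 of the 12 arrays of the series, chosen by their titles, which name the mutant, the pH, the strain and replicates 1 to 4. W303 is a common laboratory strain and YPD a rich glucose medium. Cells of both strains grew at 28 °C to a culture absorbance of 1.0, and cDNA made from 30 ug of total RNA with a poly-dT primer was coupled to Cy3 or Cy5. The 2 strains shared 1 array in each replicate, with the mutant in Cy3 on replicates 1 and 3 and in Cy5 on replicates 2 and 4. The labels give pH 6.0 for the medium, while their growth protocol names no pH, and neither states the marker genes used for the deletions. The other 8 arrays compare the same genotypes in W303 at pH 4.5 and in the BY4741 background at pH 4.5, and they serve only as a comparison. The descriptions of all 12 arrays carry the same replicate number, 1 of 4, and the numbers used here are those of the titles. By the design text the 4 replicates are biological, but whether 1 wild-type culture served several of them is not given.

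HAL4, which carries the standard name SAT4, and HAL5 encode related protein kinases that keep the potassium transporters Trk1 and Trk2 at the plasma membrane. Yeast takes up potassium through these transporters, driven by the membrane potential that the proton pump Pma1 builds, so potassium uptake and the pH of the medium are linked. Cells without both kinases are known to take up potassium poorly and to be sensitive to toxic cations. Each value here is a log2 ratio of mutant over wild type, so 1 stands for a 2-fold higher signal in the mutant and -1 for a 2-fold lower one. The logarithm's base was inferred from the range of the values, and their direction was set by the deleted genes, as described below.

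The 4 arrays differed widely in their spread and in how much they shared. Replicates 1 to 4 held 5652, 4685, 4418 and 5058 values for 5994 open reading frames. The standard deviation (SD) of the ratios across genes was 0.394, 0.475, 0.674 and 0.447, against 0.552 to 0.614 on the W303 arrays at pH 4.5 and 0.360 to 0.438 on the BY4741 arrays. Replicate 3 was the widest and the least complete. On it 11.9% of the measured genes lay at least 2-fold from 0, on replicate 2 4.53%, and on replicates 1 and 4 2.26% and 3.62%. Of these genes 131 were higher and 81 lower on replicate 2, and 259 were higher and 265 lower on replicate 3.

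Replicates 2 and 3 did not resemble each other. Across the 4032 genes measured on both, which are not independent replicates, their correlation was r = -0.0906 with both turned to mutant over wild type. The other pairs of arrays gave r = 0.551 for replicates 1 and 2, 0.439 for 1 and 3, 0.584 for 1 and 4, 0.535 for 2 and 4 and 0.209 for 3 and 4. At pH 4.5 the pairs of W303 arrays reached 0.878 to 0.948. Replicates 2 and 3 differed by at least 2-fold for 747 of their 4032 genes (18.5%), replicates 1 and 4 for 81 of 5034 (1.61%). For 16 genes both replicates 2 and 3 passed 2-fold in opposite directions, replicate 2 being the higher for 9 of them. Replicates 2 and 3 carry the mutant in opposite dyes. For 1826 of the 3886 genes measured on all 4 arrays (47.0%), and for 66 of the 155 of them that were called (42.6%), the values of replicates 1 and 3 did not overlap with those of replicates 2 and 4. Some such splits arise without any dye effect, and their share was not worked out. Apart from the dye term tested gene by gene below, the part of the dye in this was not tested.

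Replicate 1 was the most typical array of the set and replicate 3 the least. Across the 3886 genes measured on all 4 arrays, the correlation of each array with the mean of the other 3 was 0.804, 0.390, 0.234 and 0.598 for replicates 1 to 4. Values past 2-fold on that array alone numbered 10, 63, 339 and 51, and only 26 genes passed 2-fold on all 4. Against the mean ratios of W303 at pH 4.5, replicates 1 to 4 correlated at 0.630, 0.351, 0.321 and 0.509. The SD of a gene between the 4 arrays had a median of 0.250 and was 1 or more for 69 genes. A gene's dye-dependent part could be estimated for 4856 genes, and limma found 0 at an adjusted p below 0.05 and 345 at an unadjusted p below 0.05.

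**Figure D1:**
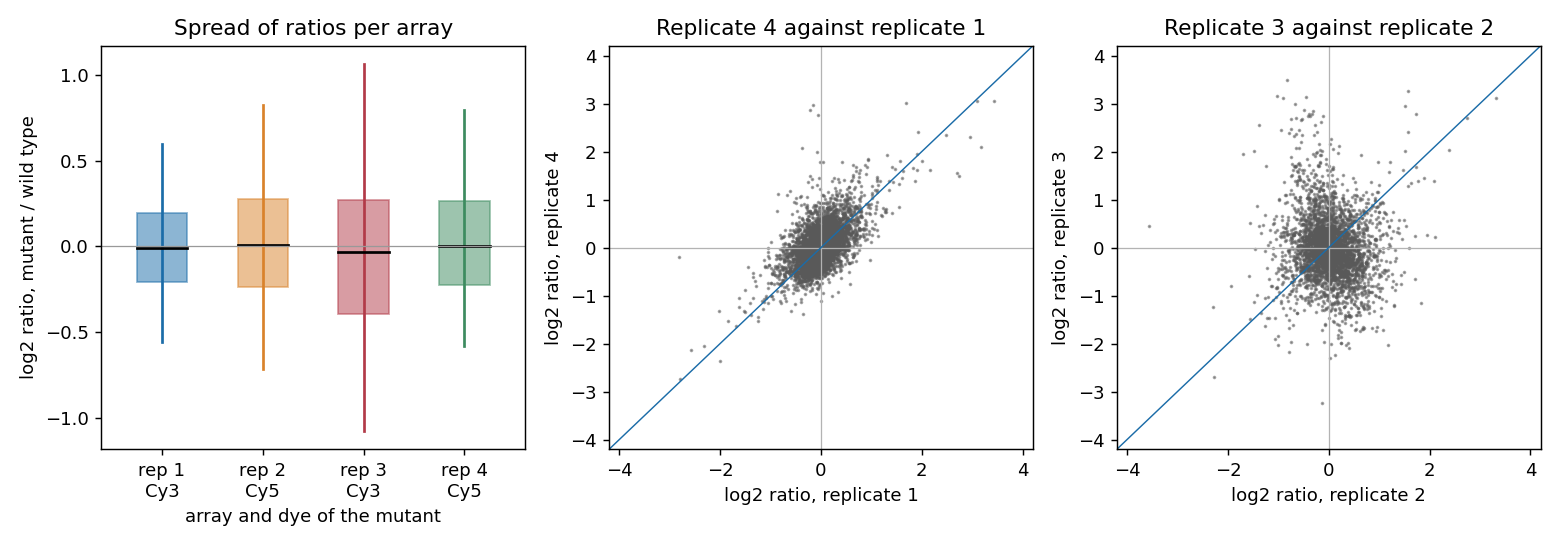
Spread and likeness of the 4 W303 pH 6.0 arrays. The left panel gives the 25th to 75th percentile of the log2 ratio of mutant over wild type on each array as a box, the median as a bar and the 5th to 95th percentile as a line, which is longest for replicate 3. The other panels plot, for genes tested, replicate 4 against replicate 1 (r = 0.584 over all shared genes) and replicate 3 against replicate 2 (r = -0.0906), with the line of equality.

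A total of 163 genes passed the test at pH 6.0, 93 of them higher and 70 lower in the mutant. The test was limma's moderated test of the mean ratio against 0, for the 4856 genes with a value on at least 3 arrays, called at an adjusted p below 0.05. The calls make up 3.36% of the genes tested (1.92% higher, 1.44% lower), and 946 genes had an unadjusted p below 0.05. The share in each direction is the background for every count of list members called at pH 6.0 below. All 163 had the same sign on each array that measured them, which the test favours, beside 1576 of all 4856 genes tested. The means of the 163 lay between 0.50 and 3.23 in size with a median of 0.85. The means of 58 called genes were at least 2-fold, 33 higher and 25 lower (1.19% of those tested, 0.680% and 0.515% by direction). In RNA from a whole culture, fewer cells with a transcript and less of it per cell cannot be told apart.

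The number of calls depended on single arrays. It was 3 without replicate 1 (GPG1, YRO2 and LEU1), 23 without replicate 2, 484 without replicate 3 and 2 without replicate 4 (GPG1 and YRO2). Every call named in the following other than GPG1 and YRO2 is thus lost without replicate 4. The 484 calls without replicate 3 included all 161 that were still tested. With replicates 2 and 3 both left out, a choice made after seeing the data, 340 genes were called and 144 of them were among the 163.

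The deleted genes were only slightly lower on most arrays. SAT4 (YCR008W) had log2 ratios of -0.15, 0.62, -1.74 and -0.57 on replicates 1 to 4, with a mean of -0.46 ± 0.37 (SE, n = 4, adjusted p = 0.56). HAL5 (YJL165C) had 0.19, -0.12 and -0.15 on replicates 1, 2 and 4 and no value on replicate 3. SAT4 was thus lower on 3 of 4 arrays and HAL5 on 2 of 3, and the arrays are described as labelled. Where their spots lie relative to the deleted stretch is not given. Over the whole series SAT4 was lower on 9 of 10 arrays and HAL5 on 9 of 11, which set the direction of all ratios and is no finding.

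Among the auxotrophic marker genes, HIS3 and ADE2 differed between the strains. HIS3, which encodes a histidine synthesis enzyme, had log2 ratios of 2.47, 1.73, 2.78 and 2.35 and rose to a mean of 2.33 ± 0.18 (SE, n = 4, adjusted p = 0.0074). ADE2, which encodes a purine synthesis enzyme, gave -1.14, -1.11, -1.10 and -1.07, the closest agreement of any marker, and fell by 1.11 (adjusted p = 0.0077). The genes next to HIS3 were also on the positive side. The RNA helicase gene DED1 rose on all 4 arrays (1.91, 1.64, 1.35 and 1.94, mean 1.71 ± 0.13 SE), and MRM1, a mitochondrial rRNA methyltransferase gene, had a mean of 0.58 (adjusted p = 0.10). URA3 gave -1.04, -1.46 and -1.16 on replicates 1, 2 and 4 but -0.02 on replicate 3, and was not called. TRP1 ranged from -1.42 on replicate 2 to 0.87 on replicate 3, its mean of -0.13 turning to 0.30 without replicate 2. Genotypes at these loci were not used here.

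The largest increases were in genes of the general stress response, a programme that yeast switches on under many stresses and on entry into stationary phase. GPG1, which encodes a proposed gamma-like subunit of a G protein, had log2 ratios of 3.43, 3.33, 3.12 and 3.06. Its mean of 3.23 ± 0.11 (SE, n = 4, adjusted p = 8.4e-04) is a 9.41-fold rise, and no array stood apart. YRO2, a plasma membrane protein related to Hsp30, gave 2.95, 2.75, 2.71 and 2.31, a 6.40-fold rise (adjusted p = 0.0036). YGP1, a secreted glycoprotein made when nutrients run out, gave 3.09, 1.58, 3.26 and 3.04, with replicate 2 well below the other 3 arrays (mean 2.74 ± 0.30 SE, adjusted p = 0.018).

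Replicate 2 was also the lowest array for SPI1, a cell wall protein that protects against weak acids. SPI1 gave 3.18, 1.57, 2.42 and 2.09 (mean 2.31 ± 0.26 SE, adjusted p = 0.019). HSP12, a small membrane-stabilising heat shock protein, gave 2.73, 2.38, 2.04 and 1.495 (mean 2.16 ± 0.21 SE, adjusted p = 0.012). DDR48, a DNA-damage-inducible gene, rose by 1.504 with its lowest value, 0.99, on replicate 2. HOR7, an osmotic stress gene, rose 3.02-fold, and MSC1, a gene linked to meiotic recombination, rose by 1.06 on the log2 scale.

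Over the whole stress list, 8 of the 32 members tested rose and 0 fell, beside 1.92% and 1.44% of all genes tested. Their median log2 ratio was 0.30 beside 0.005 over all genes tested. A further 7 members, HSP26 among them, had too few values. The count of members called higher was 2, 6, 10 and 2 without replicates 1 to 4. Not every member lay high: the disaggregase gene HSP104 had a mean of 0.01 (adjusted p = 0.97), the catalase gene CTT1 of 0.48 (adjusted p = 0.088) and the ubiquitin gene UBI4 of 0.03 (adjusted p = 0.94). The peroxidase genes PRX1 and GPX1, with means of 0.95 and 0.79, lay just outside the threshold (adjusted p = 0.05002 and 0.052).

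**Figure D2:**
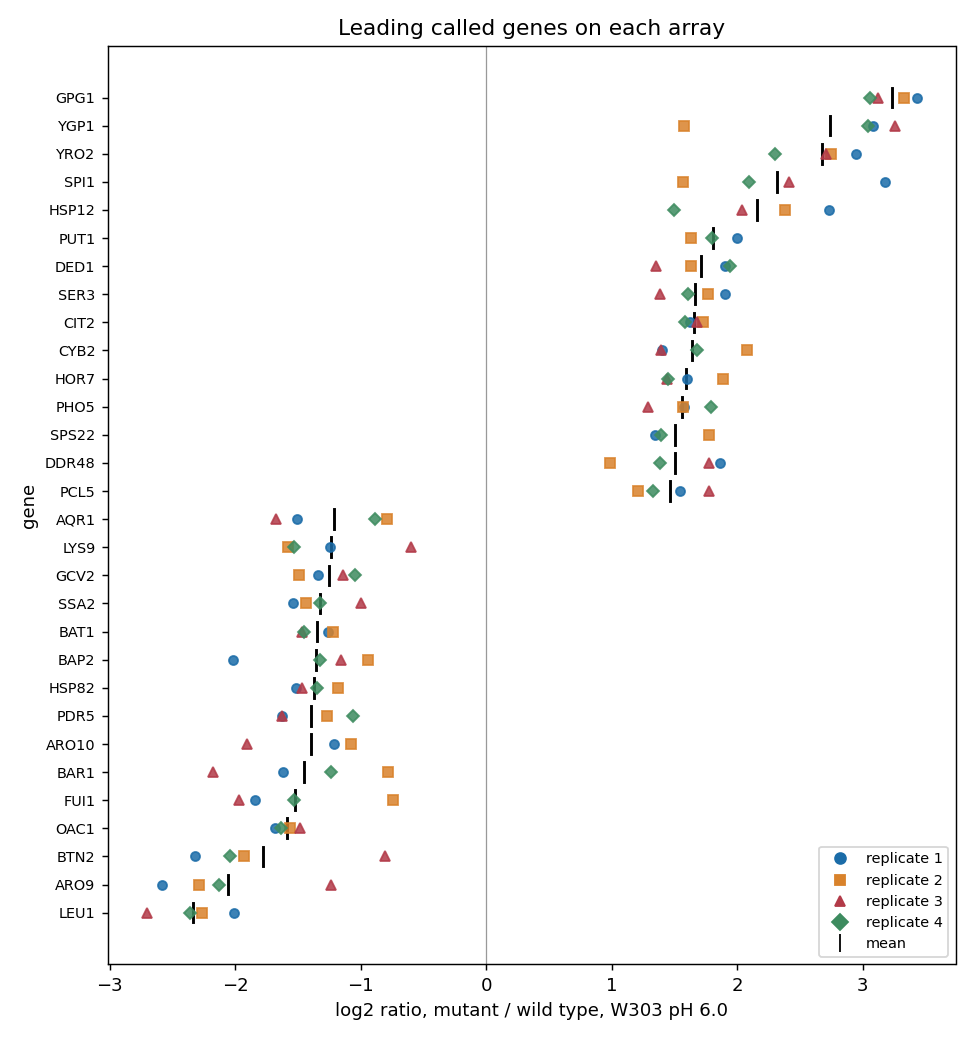
The 15 called genes with a symbol that had the largest mean rise and the 15 with the largest mean fall, leaving out the marker genes. Each symbol is the log2 ratio of mutant over wild type on 1 array and the bar the mean. All arrays that measured a gene lie on the same side of 0, while replicate 2 lies low for YGP1 and replicate 3 lies nearest 0 for BTN2 and LYS9.

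Most genes of the heat shock chaperone list were lower in the mutant, in the opposite direction to the leading stress genes. The disaggregase gene HSP104, which did not fall, and the heat shock gene HSP12, which rose, were counted on the stress list instead. The lists were drawn with earlier results known. Chaperones of the Hsp90 and Hsp70 classes and their partners fold proteins in the cytosol, and Hsf1 is the factor known to drive most of them. HSP82, one of the Hsp90 genes, gave -1.51, -1.18, -1.47 and -1.34 and fell by 1.37 ± 0.10 (SE, n = 4, adjusted p = 0.0072). Its constitutive partner HSC82 gave -1.41, -1.21, -1.03 and -1.17 and fell by 1.203 (adjusted p = 0.0099). Both Hsp90 genes were thus lower on all 4 arrays by more than the spread between arrays, though their sequences are near-identical and the spots may share signal.

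The Hsp70 genes SSA2 and SSA1 fell as well. SSA2 gave -1.54, -1.43, -0.995 and -1.33 and fell by 1.32 (adjusted p = 0.011). SSA1 gave -1.13, -1.01, -0.49 and -1.13 and fell by 0.94 (adjusted p = 0.035). Replicate 3 was the least negative array for both, and these genes too are near-identical. BTN2, which sorts misfolded proteins, fell by 1.78 ± 0.26 (SE, adjusted p = 0.033) from values of -2.32, -1.93, -0.81 and -2.04.

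The co-chaperones followed. STI1, which links Hsp70 to Hsp90, fell by 1.04, the J-protein genes SIS1, MDJ1 and YDJ1 fell by 0.89, 0.72 and 0.67, the cyclophilin gene CPR6 fell by 0.66 and the Hsp70 nucleotide exchange factor gene FES1 fell by 0.64. In all, 11 of the 21 members tested fell and 0 rose, beside 1.44% and 1.92% of all genes tested. Of the 21 means 19 were negative, with a median of -0.64. The medians of the list on replicates 1 to 4 were -0.66, -0.66, -0.48 and -0.67, so the 4 arrays lay close together here in spite of their different spread. The exceptions were HSP31, a stress-inducible methylglyoxalase gene, at 0.76 (adjusted p = 0.088) and the Hsp110 gene SSE2 at 0.28 (adjusted p = 0.49), both measured on 3 arrays. The count of members called lower was 0, 1, 14 and 0 without replicates 1 to 4, HSP82 being the call that remained without replicate 2. The ribosome-associated Hsp70 genes SSB1 and SSB2 had means near 0.

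**Figure D3:**
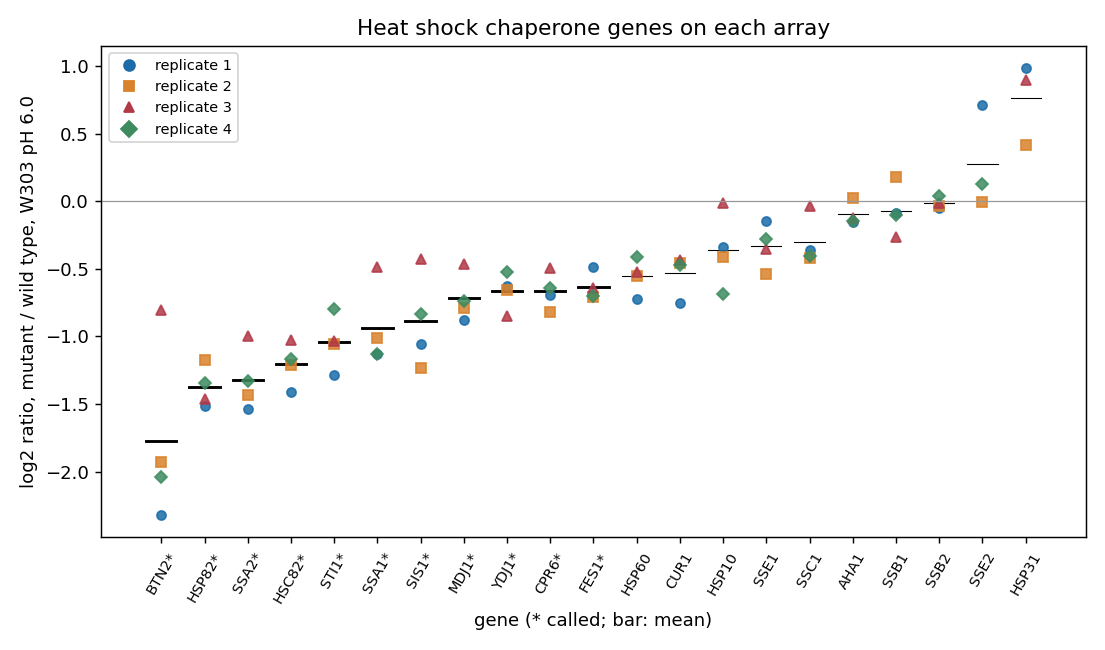
Log2 ratio of mutant over wild type on each array for the 21 heat shock chaperone genes tested, ordered by mean. Stars mark the 11 called genes and bars the means. Replicate 3 lies above the other arrays for BTN2, SSA1, SIS1 and MDJ1 and among them for HSP82 and STI1.

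Genes of mitochondrial respiration lay mostly on the positive side, with few calls. The respiratory chain passes electrons to oxygen, and glucose represses many of its genes. Of 37 genes for respiratory complexes and the ATP synthase, 35 had positive means, with a median of 0.45. Of the 37, 3 rose, beside 1.92% of all genes tested. NDI1, the internal NADH dehydrogenase gene, gave 1.01, 1.08, 0.93 and 1.04 and rose by 1.02 ± 0.092 (SE, n = 4, adjusted p = 0.010). The cytochrome oxidase genes COX4 and COX5A rose by 0.71 and 0.65 (adjusted p = 0.032 and 0.0495). The list held 0, 0, 11 and 0 calls without replicates 1 to 4. Among the other carbon genes, CYB2 and DLD1, which oxidise lactate in mitochondria, rose by 1.64 and 0.56.

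CIT2 was one of the steadiest genes of the set. It encodes the peroxisomal citrate synthase and is the standard reporter of the retrograde response, by which cells with poor mitochondrial function raise a small set of genes. It gave 1.62, 1.72, 1.68 and 1.59, a 3.15-fold rise (adjusted p = 0.0040). DLD3, another target of that response, rose by 0.80 (adjusted p = 0.027). The list as a whole had a median of 0.10 over 13 members, with these 2 called. MDH2, the cytosolic malate dehydrogenase gene, gave -0.62, -0.85, -0.61 and -0.58 and fell by 0.66 (adjusted p = 0.035), the only call among 13 genes of the glyoxylate cycle and gluconeogenesis. Among the carbohydrate stores, the phosphoglucomutase gene PGM2, the glycogen branching enzyme gene GLC3 and the trehalose phosphate synthase gene TPS1 rose by 0.78, 0.72 and 0.61, 3 of 15 members. The glucokinase gene GLK1 rose by 0.89, 1 of 22 glycolytic and fermentation genes. Of all genes tested 1.92% rose. Without replicate 2, CIT2 and CYB2 were the only genes of respiration and carbon metabolism named here that were still called.

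Genes of branched-chain and aromatic amino acid metabolism were among the largest decreases. LEU1, the isopropylmalate isomerase gene of leucine synthesis, gave -2.01, -2.27, -2.70 and -2.36, a 5.05-fold fall (adjusted p = 0.0040). It was still called without replicate 1 or 2 (adjusted p = 0.048 and 0.031), and without replicate 4 its mean of -2.33 was not called (adjusted p = 0.075). BAT1, the mitochondrial branched-chain aminotransferase gene, gave -1.26, -1.22, -1.47 and -1.45 and fell by 1.35 (adjusted p = 0.0072), and its cytosolic counterpart BAT2 fell by 0.94. OAC1, a mitochondrial carrier of oxaloacetate and isopropylmalate, gave -1.69, -1.56, -1.48 and -1.63 and fell by 1.59 (adjusted p = 0.0040). The values of BAT1 and OAC1 varied little between arrays (SD 0.13 and 0.09), replicate 3 included. Those of LEU1 and BAT2 varied more (SD 0.29 each), replicate 3 being the most negative.

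The aromatic genes were more variable. ARO9, an aromatic aminotransferase gene, gave -2.58, -2.29, -1.24 and -2.13 (mean -2.06 ± 0.23 SE, adjusted p = 0.018), and ARO10, a decarboxylase gene, fell by 1.40 on the 3 arrays that measured it. The lysine synthesis genes LYS9 and LYS12 fell by 1.24 and 0.99 and the asparagine synthetase gene ASN2 by 0.51. Against this, the arginine synthesis genes ARG7 and CPA1 rose by 0.95 and 0.68 and HOM3, the aspartate kinase gene, by 0.62. In the list of 52 amino acid genes, mostly of synthesis, 3 rose and 8 fell, beside 1.92% and 1.44% of all genes tested. ARO9 and ARO10 are among the 8, and the list's median was 0.00. Without replicates 1 to 4 the numbers called lower were 1, 2, 11 and 0. BAP2, the branched-chain amino acid permease gene, gave -2.01, -0.94, -1.16 and -1.32 and fell by 1.36 (adjusted p = 0.032).

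Some genes of glycine breakdown and of purine synthesis fell. GCV2 and GCV3, subunits of the glycine decarboxylase, fell by 1.25 and 0.87, and the serine hydroxymethyltransferase gene SHM2 fell by 0.84. They were the 3 calls among 11 genes of glycine and one-carbon metabolism, whose median was -0.13 and of whose means 3 were positive. In purine synthesis 6 of 17 genes fell, beside 1.44% of all genes tested. Of the 17, 0 rose and 11 did not pass the test, and the median was -0.56. ADE13 gave -0.79, -0.74, -0.73 and -0.75, and ADE1 gave -0.97, -0.84, -1.40 and -1.02, for falls of 0.75 and 1.05. The remaining calls were ADE2, ADE8 (-0.75) and the IMP dehydrogenase genes IMD2 and IMD4 (-0.67 each), whose near-identical sequences may share signal. The count of purine genes called lower was 0, 1, 9 and 0 without replicates 1 to 4.

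SER3, which makes the first committed intermediate of serine, rose by 1.67 (1.90, 1.76, 1.39 and 1.61, adjusted p = 0.0072). CHA1, which encodes the serine and threonine deaminase, showed the opposite sign on 3 arrays and split the set. It gave -2.81, -3.56 and -2.73 on replicates 1, 2 and 4 but 0.45 on replicate 3, and its mean of -2.16 ± 0.65 (SE, n = 4) was not called (adjusted p = 0.15). PUT1, the proline oxidase gene, rose by 1.81 on the 3 arrays that measured it, and the arginase gene CAR1 rose by 0.96. They were the 2 calls among 27 nitrogen-catabolite-repressed genes, beside 3.36% of all genes tested.

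Sulphur assimilation genes differed between arrays more than most lists. STR3, MET28, MET14 and MET16 rose by 1.27, 1.00, 0.96 and 0.85, 4 of 27 members of the methionine list. Over all genes tested the share was 1.92%. The list's medians on replicates 1 to 4 were 0.28, 0.50, -0.20 and 0.82, so replicate 3 alone lay below 0. The count called higher was 13 without replicate 3 and 0 without replicate 1, 2 or 4. The sulphate permease gene SUL2 gave 1.69, 1.26 and 3.00 on replicates 1, 2 and 4, with no value on replicate 3, and was not called (mean 1.98, adjusted p = 0.066).

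PHO5 and PHO3, which encode secreted acid phosphatases, were higher in the mutant. PHO5, which cells normally make when phosphate is scarce, gave 1.57, 1.57, 1.29 and 1.79, a 2.94-fold rise (adjusted p = 0.0072). PHO3 gave 1.10, 1.49, 0.57 and 1.42 and rose by 1.15 (adjusted p = 0.036). They were the 2 calls among 20 genes of phosphate uptake and its control, whose median was 0.26. Of all genes tested 1.92% rose. PHO11 and PHO12, with means of 0.59 and 0.50, were not called, and the sequences of these phosphatase genes are alike enough that their spots may share signal. In the cell wall list, which includes the regulator gene MSS11, PST1, MSS11, PIR3 and HSP150 rose by 1.12, 1.00, 0.94 and 0.78. They were 4 of 30 members, beside the same 1.92%. FLO11, a flocculin gene known for its variable expression, had one of the largest ratios of the set, 3.66, 1.52 and 2.95 on replicates 1 to 3, and lay just outside the threshold (mean 2.71, n = 3, adjusted p = 0.05003).

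Genes of ion transport itself did not pass the test. Of 19 genes for potassium, sodium and proton transport 0 were called, with a median of 0.03, and 0 of them were called without any 1 replicate. TRK1 gave 0.11, 0.29, 0.05 and 0.65 (mean 0.28, adjusted p = 0.32), and TRK2 -0.64, -0.59, 0.01 and 0.28 (mean -0.24, adjusted p = 0.55). PMA1 gave 0.20, 0.59, 0.41 and 1.02, positive on all 4 arrays, with a mean of 0.56 ± 0.15 (SE, adjusted p = 0.13). ENA1, the sodium pump gene, had too few values to be tested. The 19 calcineurin and calcium genes, 16 subunits of the vacuolar proton pump and 4 kinases related to Hal5 also had 0 calls. The same limit holds for these lists, which are no larger. Their medians were 0.13, -0.13 and 0.05.

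The large translation lists gave few calls. The 129 cytosolic ribosomal protein genes had 0 calls and a median of -0.09, and 105 of their means were negative. Of 72 ribosome biogenesis genes, NOP1, the rRNA methyltransferase fibrillarin, rose by 0.80 and the others were not called. The medians of that list were -0.01 and -0.09 on replicates 1 and 3 and 0.32 and 0.28 on replicates 2 and 4, which is also the split by dye. The part of the dye in this was not tested. The mitochondrial ribosomal proteins (61 genes) and the proteasome (31 genes) had 0 calls, with medians of -0.05 and -0.21. Of the proteasome genes 29 had negative means, and 5 were called lower without replicate 3 and 0 without replicate 1, 2 or 4.

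**Figure D4:**
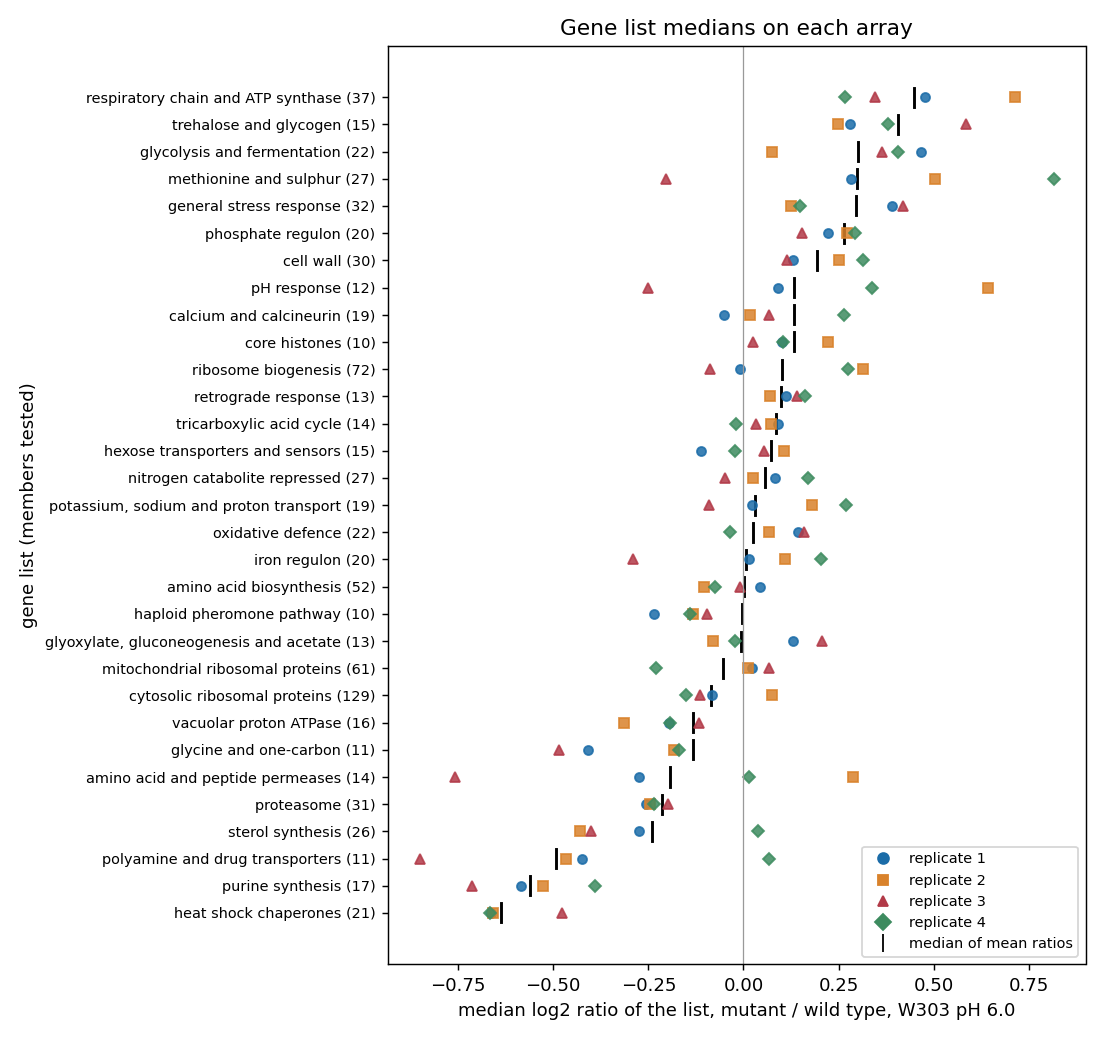
Median log2 ratio of mutant over wild type of each gene list on each of the 4 arrays, with the number of members tested in brackets. The bar is the median of the members' mean ratios. The chaperone and purine lists lie below 0 on all 4 arrays. Replicate 3 alone lies below 0 for the methionine list and is the lowest for the permease and drug transporter lists. For the permeases replicates 1 and 3 lie below 0 and replicates 2 and 4 above it. For the drug transporters replicate 4 alone lies above 0.

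Among the genes that mark the mating type of haploid cells, 1 was called. The alpha-factor protease gene BAR1, a marker of MATa cells, fell by 1.45 ± 0.23 (SE, adjusted p = 0.039) from -1.62, -0.78, -2.17 and -1.24, and was the only call among 5 MATa genes tested. The receptor gene STE2 and the pheromone gene MFA2 had means of -0.38 and -0.03. Of the MATalpha genes only SAG1 could be tested, with a mean of -0.15 (adjusted p = 0.59). The 10 genes of the pheromone pathway and 7 of meiosis and sporulation held 0 calls.

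Genes for 3 transporters of other substrates fell. PDR5, the main multidrug pump, gave -1.62, -1.27, -1.63 and -1.06 and fell by 1.39 (adjusted p = 0.012). It was the only call among 11 polyamine and drug transporter genes, whose median was -0.49 and of whose means 3 were positive. FUI1, the uridine permease gene, fell by 1.52 and AQR1, a transporter that exports amino acids, by 1.21. For FUI1 and AQR1 the ratio was more negative on replicates 1 and 3 (FUI1 -1.84 and -1.97, AQR1 -1.51 and -1.67) than on replicates 2 and 4 (FUI1 -0.75 and -1.53, AQR1 -0.79 and -0.89). The peptide transporter gene PTR2 split in the same way and more strongly. It gave -2.82 and -3.23 on replicates 1 and 3 but -0.13 and -0.20 on replicates 2 and 4, and was not called (adjusted p = 0.23).

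For several other genes a large spread came from 1 array. DSC2, a ubiquitin ligase subunit gene, had the largest SD of the genes measured on all 4 arrays, 3.12 on replicate 3 and between -0.91 and -0.22 on the others. GPM3, MUD1 and PEX31 likewise reached 2.99, 2.78 and 2.77 on replicate 3 and stayed between -0.68 and 0.12 elsewhere. GIP3 and FMP27 reached 2.97 and 2.75 on replicate 4. The transporter gene MMP1 was split by dye instead and gave -0.50 and -2.04 on replicates 1 and 3 and 1.18 and 1.03 on replicates 2 and 4. None of these genes was called, with adjusted p from 0.59 to 0.96.

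The genes called at pH 6.0 mostly moved the same way in W303 at pH 4.5, where 69.2% of 5501 genes were called (36.1% higher, 33.1% lower). Of the 93 genes higher at pH 6.0, 89 (95.7%) were also higher at pH 4.5, beside 35.2% of the 4840 genes tested in both sets. Of the 70 lower genes 54 (77.1%) were lower there too, beside 34.3%. These shared genes are 5.22% and 3.26% of the pH 4.5 calls in the same direction. The calls at pH 6.0 numbered 163, but 484 without replicate 3 and 1102 with the spread pooled over 12 arrays. The small shares thus depend on how many genes could be called at pH 6.0, and do not measure how much of the response at pH 4.5 is missing. In BY4741 at pH 4.5, where 31.4% of genes were called (15.9% higher, 15.4% lower), 64 of 90 (71.1%) and 46 of 68 (67.6%) were called in the same direction, beside 16.5% and 15.8% of the genes tested in both. Strain and pH differ together between that set and W303 at pH 6.0, so no difference was tested.

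The difference between pH 6.0 and pH 4.5 in W303 was tested directly in a fit of all 12 arrays. It passed for 1139 of 4755 genes (24.0%), with the ratio higher at pH 6.0 for 511 (10.7%) and lower for 628 (13.2%), and was at least 2-fold for 137 (2.88%). The test pools the spread over the 12 arrays, although the W303 arrays at pH 6.0 correlated less with each other (r = -0.0906 to 0.584) than those at pH 4.5 (0.878 to 0.948). The count was 583 with the arrays scaled to 1 spread across genes. Of the 163 calls at pH 6.0, 158 could be tested and 82 differed, 45 being larger in size at pH 4.5 and 37 at pH 6.0.

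In W303, chaperone genes had lower ratios at pH 6.0 than at pH 4.5. Their median was -0.64 at pH 6.0 and -0.10 at pH 4.5, and -0.11 in BY4741 at pH 4.5. The ratio was lower at pH 6.0 for 13 of 19 members tested, beside 13.2% of all genes tested. SSA2 and HSC82, called lower at pH 6.0, had means of -0.13 and -0.16 at pH 4.5 and differed by -1.196 ± 0.165 and -1.04 ± 0.15 (SE, adjusted p = 4.4e-04 and 4.9e-04). Both were also called lower in BY4741 at pH 4.5, with means of -0.71 and -0.74 (adjusted p = 0.0077 and 0.0031 in limma). MDJ1 was on opposite sides of 0, at -0.72 and 0.46. HSP82 had too few values in BY4741 for the fit of 12 arrays. In a fit of the 8 W303 arrays its means of -1.37 and -0.41 differed by -0.97 ± 0.175 (SE, adjusted p = 0.0066).

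In W303 many stress genes had lower ratios at pH 6.0 than at pH 4.5. HSP12 had a mean of 2.16 at pH 6.0 and 4.17 at pH 4.5, a difference of -2.01 ± 0.27 (SE, adjusted p = 3.6e-04), SPI1 2.31 and 4.43 (adjusted p = 0.0075), and GPG1 3.23 and 4.76 (adjusted p = 0.0040). YGP1 and YRO2 had like means in both media (2.74 and 2.82, 2.68 and 2.36), and their differences of -0.07 ± 0.29 and 0.32 ± 0.17 (SE) were not called. Over the stress list 20 of 32 members had a lower ratio at pH 6.0 and 0 a higher one, beside 13.2% and 10.7% of all genes. HSP104, at 0.01 here, had a mean of 1.52 at pH 4.5. PGM2 had 0.78 and 2.71, and FMP33, a mitochondrial protein gene, 0.37 and 2.59.

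In W303, purine and phosphate genes had higher ratios at pH 6.0 than at pH 4.5. The purine median was -0.56 against -1.33, and 14 of 17 members differed, all in that direction, beside 10.7% of all genes tested. The phosphate median was 0.26 against -0.24. BY4741 at pH 4.5 had a purine median of -0.66 and a phosphate median of -0.22. HPT1, the hypoxanthine phosphoribosyltransferase gene of purine salvage, gave 0.13, 0.26, -0.05 and 0.19 at pH 6.0 and had a mean of -2.02 at pH 4.5 (difference 2.15 ± 0.13 SE, adjusted p = 1.3e-06). ADE17, a purine synthesis gene, had -0.56 on 3 arrays and -2.60. PHO5 and PHO3, higher in the mutant at pH 6.0, were lower at pH 4.5, with means of -0.54 and -1.01, and differed by 2.09 ± 0.12 and 2.15 ± 0.18 (SE). Of the 19 phosphate genes tested 6 differed, all higher at pH 6.0, beside the same 10.7%. MDH2 went the other way, with -0.66 at pH 6.0 and 1.30 at pH 4.5 (adjusted p = 5.2e-06).

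Translation genes, lower in W303 at pH 4.5, were closer to 0 at pH 6.0. The ribosome biogenesis median was 0.10 at pH 6.0 and -0.49 at pH 4.5, and -0.16 in BY4741 at pH 4.5. At pH 4.5 63 of 72 members were called lower, beside 33.1% of all genes tested. The differences of 47 of 72 were higher at pH 6.0, beside 10.7% of all genes tested. For the cytosolic ribosomal proteins the medians were -0.09 and -0.36, with 30 of 127 differences higher at pH 6.0, beside the same 10.7%. Their median in BY4741 was -0.08. NOP1 went against its list, with 0.80 and 2.13. LEU1, ARO9, PDR5, OAC1 and BAT1 had means within 0.21 of each other in the 2 media, and their differences were not called. The largest of these, for OAC1, was 0.21 ± 0.14 (SE).

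**Figure D5:**
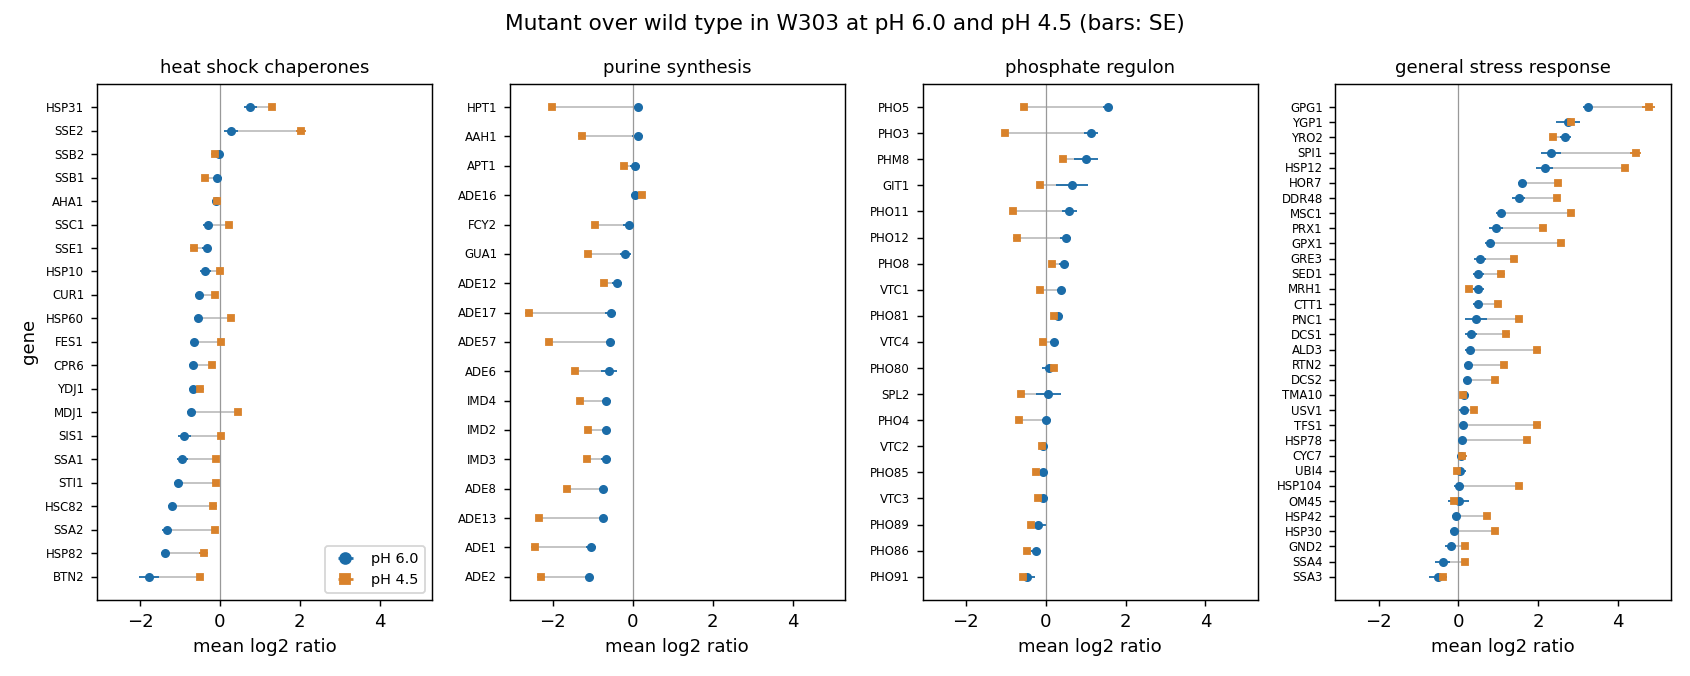
Mean log2 ratio of mutant over wild type in W303 at pH 6.0 (circles) and pH 4.5 (squares) for the tested members of 4 gene lists, with the standard error as a bar. Chaperone and stress genes lie mostly lower at pH 6.0, and purine genes and PHO5, PHO3, PHO11 and PHO12 lie higher.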

How the data were processed

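The deposited values, taken as log2 ratios of Cy5 over Cy3, had been reduced by the authors to 1 value per open reading frame and array, as the deposited table shows. The base was inferred from their range, the natural logarithm cannot be told apart from it, and the numerator dye was set by the deleted genes. The authors' normalisation, filter and genome build are not given in the sources used here, scanner intensities were not used, and signal over background is unknown. The sign was turned on arrays with the mutant in Cy3, per the labels. A mean ratio per gene was fitted and moderated with limma 3.58.1 in R 4.3.3. The series text names SAM, which was run as an alternative. The p-values are two-sided with Benjamini-Hochberg adjustment over all genes tested in a comparison. The pH difference was tested as a contrast over 12 arrays and needed 3 or more values per set. Standard errors (SE) are limma's. The p-values rest on the spread between 4 arrays, which limits their precision. The steps were tested on simulated data.

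The arrays, gene lists and tests were chosen with earlier results of these data known. The genes named are the deleted kinases, marker genes, the 15 largest called rises and falls with a symbol and 1 sign on every array, up to 4 called members of each list or, where a list had 0, its most extreme members, the 10 with the largest SD, the 10 largest means not called and the 10 largest pH differences. Others were picked after their values were seen, among them further members of the chaperone, amino acid, stress, phosphate and transport lists. A RefSeq table (assembly R64) paired 5481 of 5994 reading frames, 4994 with a symbol, and 513 were unmatched. Its gene order gave the neighbours of HIS3. Promoter and protein sequences were not analysed here. Alternatives were other scalings, filters, dye and weight terms, SAM and leaving out arrays.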

Additional observations from a re-analysis of the deposited data

Results flagged for a closer look

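Of the 117 genes named here that had 4 values, 7 had a lowest or highest array past Dixon's 95% limit, which chance passes for about 1 in 20, as did 0 of 4 measures of the arrays themselves (values, median and spread). Replicate 3 stood apart for DSC2 (3.123), MUD1 (2.776), PEX31 (2.775) and NOP1 (0.926). Replicate 2 stood apart for YGP1 (1.578), YOX1 (0.849) and MDH2 (-0.849). DSC2, MUD1 and PEX31 were named for their large spread, so their values are no further evidence of it.

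The mutant's ratio differed between pH 6.0 and pH 4.5 in W303, by the contrast in limma, for 68 of the 128 named genes tested, 20 being higher and 48 lower at pH 6.0. Some were named for this difference, and the values in brackets are the differences on the log2 scale. Among the chaperone and folding genes the ratio was lower at pH 6.0 for SSE2 (-1.764), HSP104 (-1.512), CPR1 (-1.311), SSA2 (-1.196), MDJ1 (-1.176), HSC82 (-1.042), STI1 (-0.9385), SIS1 (-0.9208), SSA1 (-0.847), PDI1 (-0.7078), FES1 (-0.6522), ERO1 (-0.65), KAR2 (-0.6417), HSP31 (-0.5304), CPR5 (-0.5) and CPR6 (-0.4628). Among stress, cell wall and mitochondrial genes it was lower for FMP33 (-2.221), SPI1 (-2.117), HSP12 (-2.008), RGI1 (-1.939), GPX1 (-1.765), MSC1 (-1.752), GPG1 (-1.527), PRX1 (-1.161), DDR48 (-0.968), HOR7 (-0.9038), PIR3 (-0.5383) and CTT1 (-0.5025). Among genes of carbon and sulphur metabolism it was lower for MDH2 (-1.964), PGM2 (-1.936), GLK1 (-1.69), GLC3 (-1.488), MET17 (-1.309), MET28 (-1.21), TPS1 (-1.195), CIT2 (-1.168), MET16 (-1.156), MET14 (-1.048), NDI1 (-0.6778) and DLD3 (-0.6225). It was lower also for NOP1 (-1.332), YDR154C (-1.003), MFA2 (-0.9608), URA3 (-0.871), BAR1 (-0.7948), YMR173W-a (-0.7573), YAL004W (-0.6142) and CLN1 (-0.4157).

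The ratio was higher at pH 6.0 for the purine genes HPT1 (2.148), ADE17 (2.041), ADE13 (1.603), ADE1 (1.401), ADE2 (1.192), ADE8 (0.8945), IMD4 (0.6605) and IMD2 (0.4485) and the phosphatase genes PHO3 (2.154), PHO5 (2.094), PHO11 (1.396) and PHO12 (1.225). It was higher also for SPS22 (1.451), BAP2 (1.028), DED1 (0.6075), SER3 (0.5557), MSS11 (0.5283), ARG7 (0.434), COX5A (0.4017) and CAR1 (0.359). SPS22, a spore wall gene, rose by 1.504 on the 3 arrays at pH 6.0 and had a mean of 0.05 at pH 4.5. RGI1 is a regulator of respiration. Several of these genes, URA3 and MET17 among them, were not called at pH 6.0, and URA3's mean there includes the -0.02 of replicate 3.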

How the results depend on the processing

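The 163 calls at pH 6.0 became 479 with limma's array weights, which gave replicates 1 to 4 weights of 2.48, 0.885, 0.395 and 1.16, 333 by one-class SAM, 1102 with the spread pooled over 12 arrays, 37 when tested against a 1.2-fold change and 340 without replicates 2 and 3 together. Leaving out 1 replicate gave 2 to 484. The 58 calls of at least 2-fold became 34 against a 1.2-fold change, 94 without replicates 2 and 3 together and 2 to 78 with 1 replicate left out. Fewer arrays leave fewer degrees of freedom, and the cause of the increase without replicate 3 was not tested. With arrays centred, scaled to 1 spread, a dye term, or genes with 4 values or with at least 2, the calls were 166, 168, 114, 215 and 134, of which 161, 146, 100, 155 and 134 were among the 163.

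The 1139 pH differences became 583 with arrays scaled to 1 spread and 801 to 1448 with 1 pH 6.0 replicate left out. With the replicate number as a block they were 986. Same-numbered W303 arrays of the 2 media deviated together at r = 0.242, 0.110, -0.151 and -0.143, and arrays of unlike number at -0.278 to 0.312. Replicates 1 to 3 carry the mutant in opposite dyes in the 2 media, so whether the numbers pair the arrays cannot be told from this. The calls at pH 4.5 were 3134 to 3615 in W303 and 739 to 1360 in BY4741 with 1 replicate left out. HAL5 changed sign, to 0.026 with a dye term, 0.041 with array weights and 0.019 without replicates 2 and 3 together, where TRP1 was 0.012. TRP1 was 0.30 without replicate 2 and -0.47 without replicate 3, its range with 1 replicate left out. Promoter motifs were not run.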

Other observations

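At pH 6.0 4 genes of protein folding in the endoplasmic reticulum fell. They were in none of the gene lists and were picked after their values were seen. KAR2, the Hsp70 of that compartment, gave -1.08, -1.34, -1.37 and -1.06 and fell by 1.21 ± 0.11 (SE, n = 4, adjusted p = 0.0099 in limma). LHS1, its nucleotide exchange factor, PDI1, the protein disulphide isomerase gene, and CPR5, a cyclophilin gene, fell by 1.03, 0.78 and 0.52. The oxidase gene ERO1 and the exchange factor gene SIL1 had means of -1.05 and -0.73 and were not called (adjusted p = 0.062 and 0.064), and the calnexin gene CNE1 had a mean of 0.03. At pH 4.5 in W303 KAR2 had a mean of -0.57 and PDI1 of -0.07, and the differences of -0.64 and -0.71 were called. The cytosolic cyclophilin gene CPR1 fell by 0.85 at pH 6.0 and had a mean of 0.46 at pH 4.5.

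Some genes of the G1 phase of the cell cycle were higher at pH 6.0, again picked after their values were seen. The cyclin genes CLN1, PCL1 and CLB5 rose by 0.89, 0.78 and 0.50 and the repressor gene YOX1 by 0.62, each with 1 sign on all 4 arrays. CLN2 and CLB6, with means of 0.03 each, were not called.

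Several called reading frames without a symbol have systematic names next to those of named calls. YOR203W (2.06, n = 3) stands beside DED1 (1.71) and HIS3 (2.33), YMR173W-a (1.76) beside DDR48 (1.504), YDR154C (-1.06) beside CPR1 (-0.85), YAL004W (-0.66) beside SSA1 (-0.94) and YLR101C (-0.75) beside ERG27 (-0.53). Whether their spots report separate transcripts was not tested.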
